A study of Homo sapiens with 52 samples.

Results

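The insulin-like growth factor IGF2 and the IGF binding proteins IGFBP2, IGFBP3, IGFBP4, IGFBP5, IGFBP6 and IGFBP7 were followed in 3 claudin-low breast cancer cell lines after knockdown of the co-receptor Neuropilin-1 (NRP1). The members were chosen by gene name and made up 7 of the 78894 genes in the deposited gene tables. SUM159PT, MDA-MB-231 and HS578T are triple-negative lines of the claudin-low subtype, in which junction proteins are low and mesenchymal genes are high. Each line received 6 treatments, and every culture carried an siRNA or an shRNA, so no untreated cells were sequenced. A non-targeting siRNA (siNT) or 1 of the NRP1-targeting siRNAs siNRP1#3 and siNRP1#5 was transfected at 20 nM and RNA was taken at 72 hrs. Lentivirus carried the non-targeting shRNA (shNT) or, against NRP1, shNRP1#3 or shNRP1#5; the cells were selected with puromycin, and RNA was taken 48 hrs after seeding. Both #3 sequences target only the transmembrane form of NRP1 and differ from each other, whereas siNRP1#5 and shNRP1#5 share a sequence that targets the transmembrane and soluble forms. Bulk RNA sequencing gave 52 samples, namely 18 from MDA-MB-231 and 17 from each of the other lines. Of the 18 groups, 16 held 3 samples and 2 held 2, since HS578T shNRP1#3 had replicates 1 and 2 and siNRP1#5 in SUM159PT had replicates 2 and 3. The replicates of the shRNA groups were consecutive passages, so p-values measure the spread between such samples, and in bulk RNA fewer cells and less RNA per cell cannot be told apart.

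IGF1 and IGF2 are secreted growth factors that signal through the receptor IGF1R, and most IGF outside cells is held by the IGF binding proteins. The classical binding proteins bind IGFs with high affinity and can withhold the ligand from its receptor or release it once a protease cuts them. IGFBP7 belongs to a related group with low affinity for IGFs, and several of the proteins also act on cells without IGF. In breast cancer cells the binding proteins are known as secreted products whose level depends strongly on the type of cell.

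The 30 bases before the annotated start of transcription are shown for IGFBP3, IGFBP4 and IGFBP6, the members that passed the test in most knockdown comparisons, with a match to the letters TATAAA or TATATA in capitals. The sequences are those of RefSeq on GRCh38.p14, read 5′ to 3′ on the strand of the gene, and cover chr7:45921273-45921302 (minus strand), chr17:40443420-40443449 (plus strand) and chr12:53097637-53097666 (plus strand), respectively.
IGFBP3: TATATAgcggccggcgcgcccgggccgccc
IGFBP4: gTATAAAgtccgggggagccggtcccgggc
IGFBP6: acttaagacagaggggcggcggcgggcagc
IGFBP3 had TATATA from 30 bases before the start and IGFBP4 had TATAAA from 29 bases before it, whereas neither run of letters was found on either strand in the window of IGFBP6, in that of IGFBP5 or in the 3 windows listed for IGFBP2. Of 35116 RefSeq promoter windows of 250 bases before to 50 bases after a start, 11.5% held TATAAA and 3.99% held TATATA on either strand, and these 2 runs of letters can overlap. IGFBP7 and IGF2 had no entry. In GENCODE coordinates on GRCh38, IGFBP2 (chr2:216632828-216664436, plus strand) and IGFBP5 (chr2:216672105-216695549, minus strand) lie 7668 bases apart. The other members lie on separate chromosomes, with IGFBP3 at chr7:45912245-45921874 (minus strand), IGFBP4 at chr17:40443450-40457725 (plus strand) and IGFBP6 at chr12:53097436-53102345 (plus strand). IGFBP7 spans chr4:57030773-57110385 (minus strand) and IGF2 spans chr11:2129112-2158391 (minus strand).

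Libraries held 25310443 to 72003442 expected counts (median 44804505). NRP1 was below its NT control in all 12 knockdown comparisons, with log2 fold changes from -4.88 to -0.70, and passed the test in 11 of them. shNRP1#3 in HS578T did not pass (-1.59 ± 0.29 SE, adjusted p = 0.069). The claudin-low markers VIM (1519 to 10790 CPM, expected counts scaled to library size) and ZEB1 (6.90 to 58.7 CPM) were found in every library. ITGA6 ran from 11.1 CPM in HS578T to 353 CPM in MDA-MB-231, and SNAI1 from 0.924 CPM in HS578T to 65.9 CPM in SUM159PT. CLDN3 and CDH1 stayed at or below 9.36 and 9.11 CPM, while CLDN7 reached 53.7 CPM and CLDN4 reached 292 CPM, the latter in MDA-MB-231. Genes of the other cell lines were also read. In the HS578T siNRP1#5 libraries, genes that HS578T controls lack stood at 12.0% to 22.6% of their MDA-MB-231 level over 3 marker genes (13.3% to 24.8% over 59 genes with markers set by group means), and replicate 2 also held SUM159PT genes at 6.74% (11 genes). HS578T siNRP1#3 held 1.94% to 6.70% by these 3 genes, and MDA-MB-231 shNRP1#3 replicate 3 held 1.90% of HS578T and 2.33% of SUM159PT. In all libraries outside these 3 groups the share was at most 1.18% by this first marker rule, or 2.19% with markers set by group means. These shares are levels of marker genes, and where their reads came from was not tested.

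In the NT controls most binding proteins differed between the cell lines. On the mean of siNT and shNT, HS578T held more IGFBP3, IGFBP5, IGFBP6, IGFBP7 and IGF2 than both other lines and less IGFBP2, while IGFBP4 was high in all 3. In shNT alone HS578T overlapped MDA-MB-231 for IGFBP7, at 276 to 724 against 284 to 320 CPM. It overlapped SUM159PT there for IGFBP5 (8.91 to 68.2 against 4.57 to 15.1 CPM) and IGFBP6 (97.2 to 246 against 79.9 to 101 CPM). In siNT none of these overlapped. Of the 21 tests of a member between a pair of cell lines, 16 passed, against 64.4% of all tests of all genes (edgeR quasi-likelihood, Benjamini-Hochberg adjusted p under 0.05). By pair, 4 of 7 members passed between SUM159PT and MDA-MB-231 (59.4% of all genes), 6 of 7 between HS578T and MDA-MB-231 (70.2%) and 6 of 7 between HS578T and SUM159PT (63.5%). Levels between genes are compared here in TPM, which takes transcript length into account, as the mean ± SD over the 6 NT samples of a line. The tests between lines were run on counts, and TPM were not tested between lines.

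IGFBP4, which is mostly inhibitory and is cleaved by the protease PAPPA, was the most abundant member in each line. It stood at 1168 ± 579 TPM in SUM159PT, 1184 ± 242 TPM in MDA-MB-231 and 674 ± 230 TPM in HS578T (SD, n = 6). No pair of lines passed the test for IGFBP4, with log2 differences of 0.24 ± 0.24 (SUM159PT against MDA-MB-231, adjusted p = 0.404), -0.04 ± 0.24 (HS578T against MDA-MB-231, 0.894) and -0.28 ± 0.24 (HS578T against SUM159PT, 0.303). IGFBP7 came next by its mean, with 307 ± 95.4 TPM in MDA-MB-231, 527 ± 246 TPM in HS578T and 130 ± 92.6 TPM in SUM159PT. It was higher in HS578T than in MDA-MB-231 by 1.50 ± 0.24 on the log2 scale (adjusted p = 8.61e-07) and lower in SUM159PT than in MDA-MB-231 (-1.10 ± 0.24, 0.000134). These tests average siNT and shNT. In shNT, IGFBP7 was 53.9 ± 18.7 CPM in SUM159PT against 297 ± 19.9 CPM in MDA-MB-231. In siNT it was not lower in SUM159PT, with 231 ± 105 CPM against 193 ± 39.7 CPM (SD, n = 3). IGFBP6, which binds IGF2 in preference to IGF1, stood at 124 ± 45.3, 131 ± 12.1 and 183 ± 64.5 TPM in SUM159PT, MDA-MB-231 and HS578T. HS578T exceeded MDA-MB-231 by 1.28 ± 0.18 and SUM159PT by 1.04 ± 0.18 on the log2 scale of counts (adjusted p = 5.31e-08 and 4.15e-06). In TPM, by contrast, the HS578T samples (143 to 311) overlapped those of MDA-MB-231 (117 to 150) and SUM159PT (70.2 to 190), so the size of this excess depends on the measure.

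IGFBP3, the main IGF carrier of the blood, separated the lines. The 6 NT samples of SUM159PT ran from 0.81 to 6.30 TPM, those of MDA-MB-231 from 25.7 to 34.9 TPM and those of HS578T from 125 to 490 TPM, so the lines did not overlap. HS578T exceeded SUM159PT by 7.33 ± 0.49 on the log2 scale (adjusted p = 7.76e-16) and MDA-MB-231 by 3.69 ± 0.41 (3.29e-10). IGFBP2, a binding protein best known from fetal tissues and tumours, ran the other way. It stood at 33.3 ± 20.8 TPM in SUM159PT and 24.0 ± 4.38 TPM in MDA-MB-231 against 1.04 ± 0.68 TPM in HS578T, and the difference of HS578T from SUM159PT was -4.51 ± 0.52 (1.21e-09). SUM159PT and MDA-MB-231 did not pass the test for IGFBP2 (0.85 ± 0.43, adjusted p = 0.0908).

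IGFBP5, a close relative of IGFBP3 in sequence, was low in HS578T (5.50 ± 3.32 TPM) and SUM159PT (1.51 ± 1.40 TPM) and near 0 in MDA-MB-231, where the 6 NT libraries held 0 to 10 counts of it each. HS578T exceeded SUM159PT by 2.56 ± 0.54 on the log2 scale (adjusted p = 8.95e-05). IGF2 was scarce throughout, with 0.44 ± 0.32 TPM in HS578T, 0.058 ± 0.029 TPM in MDA-MB-231 and at most 0.01 TPM in SUM159PT. HS578T exceeded MDA-MB-231 for IGF2 by 3.81 ± 0.45 (1.31e-09). No fold is given against SUM159PT, whose 17 libraries held 0 to 3 counts of IGF2 each. IGF1 was at most 0.17 TPM in any NT control.

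**Figure D1:**
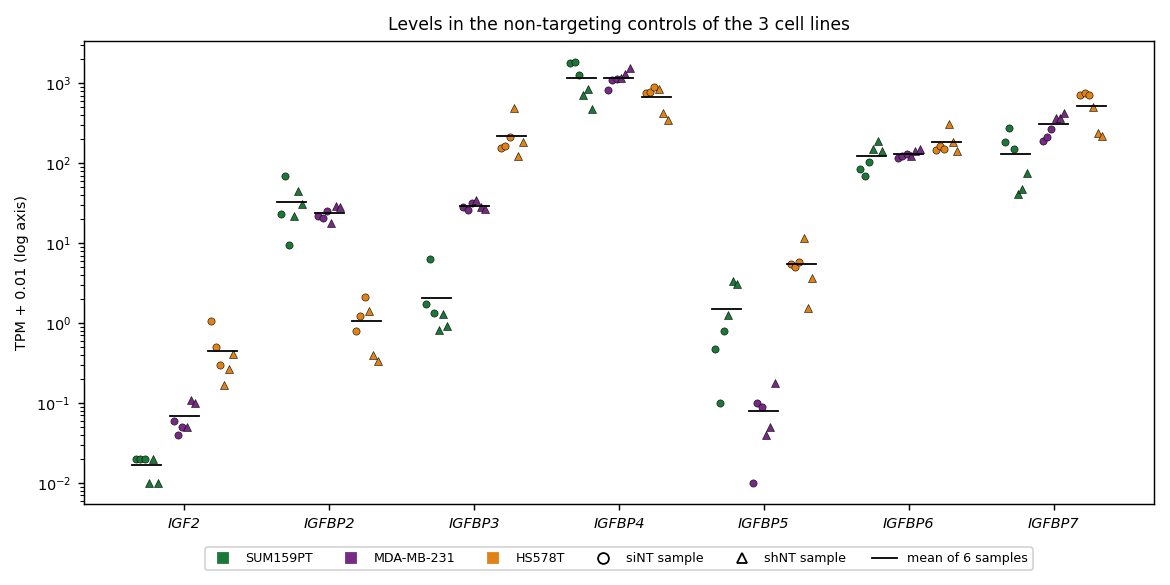
Levels of the members (x axis) in the NT controls as TPM + 0.01 on a log axis; circles are siNT samples, triangles shNT samples, colours the 3 cell lines and bars the mean of the 6 samples. IGFBP3 is separated by line with no overlap, IGFBP2 is lowest in HS578T, and IGFBP4 lies at 349 TPM or more in every sample.

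Over all 18 groups the order of the mean CPM followed the cell line for IGFBP3 alone, with the 6 HS578T groups above the 6 MDA-MB-231 groups and these above the 6 SUM159PT groups. Of the 17 pairs of neighbours in the order of IGFBP3, 12 overlapped in their samples and 5 did not. For IGFBP2, IGFBP4, IGFBP5, IGFBP6 and IGFBP7, 16 of 17 neighbours overlapped. IGFBP4 ran from 3050 ± 866 CPM in SUM159PT siNT (SD, n = 3) to 364 ± 225 CPM in HS578T shNRP1#3 (n = 2), and the lines were interleaved in between. IGFBP7 ran from 1181 ± 280 CPM in HS578T siNRP1#3 to 53.9 ± 18.7 CPM in SUM159PT shNT, with all 6 HS578T groups at the top.

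**Figure D2:**
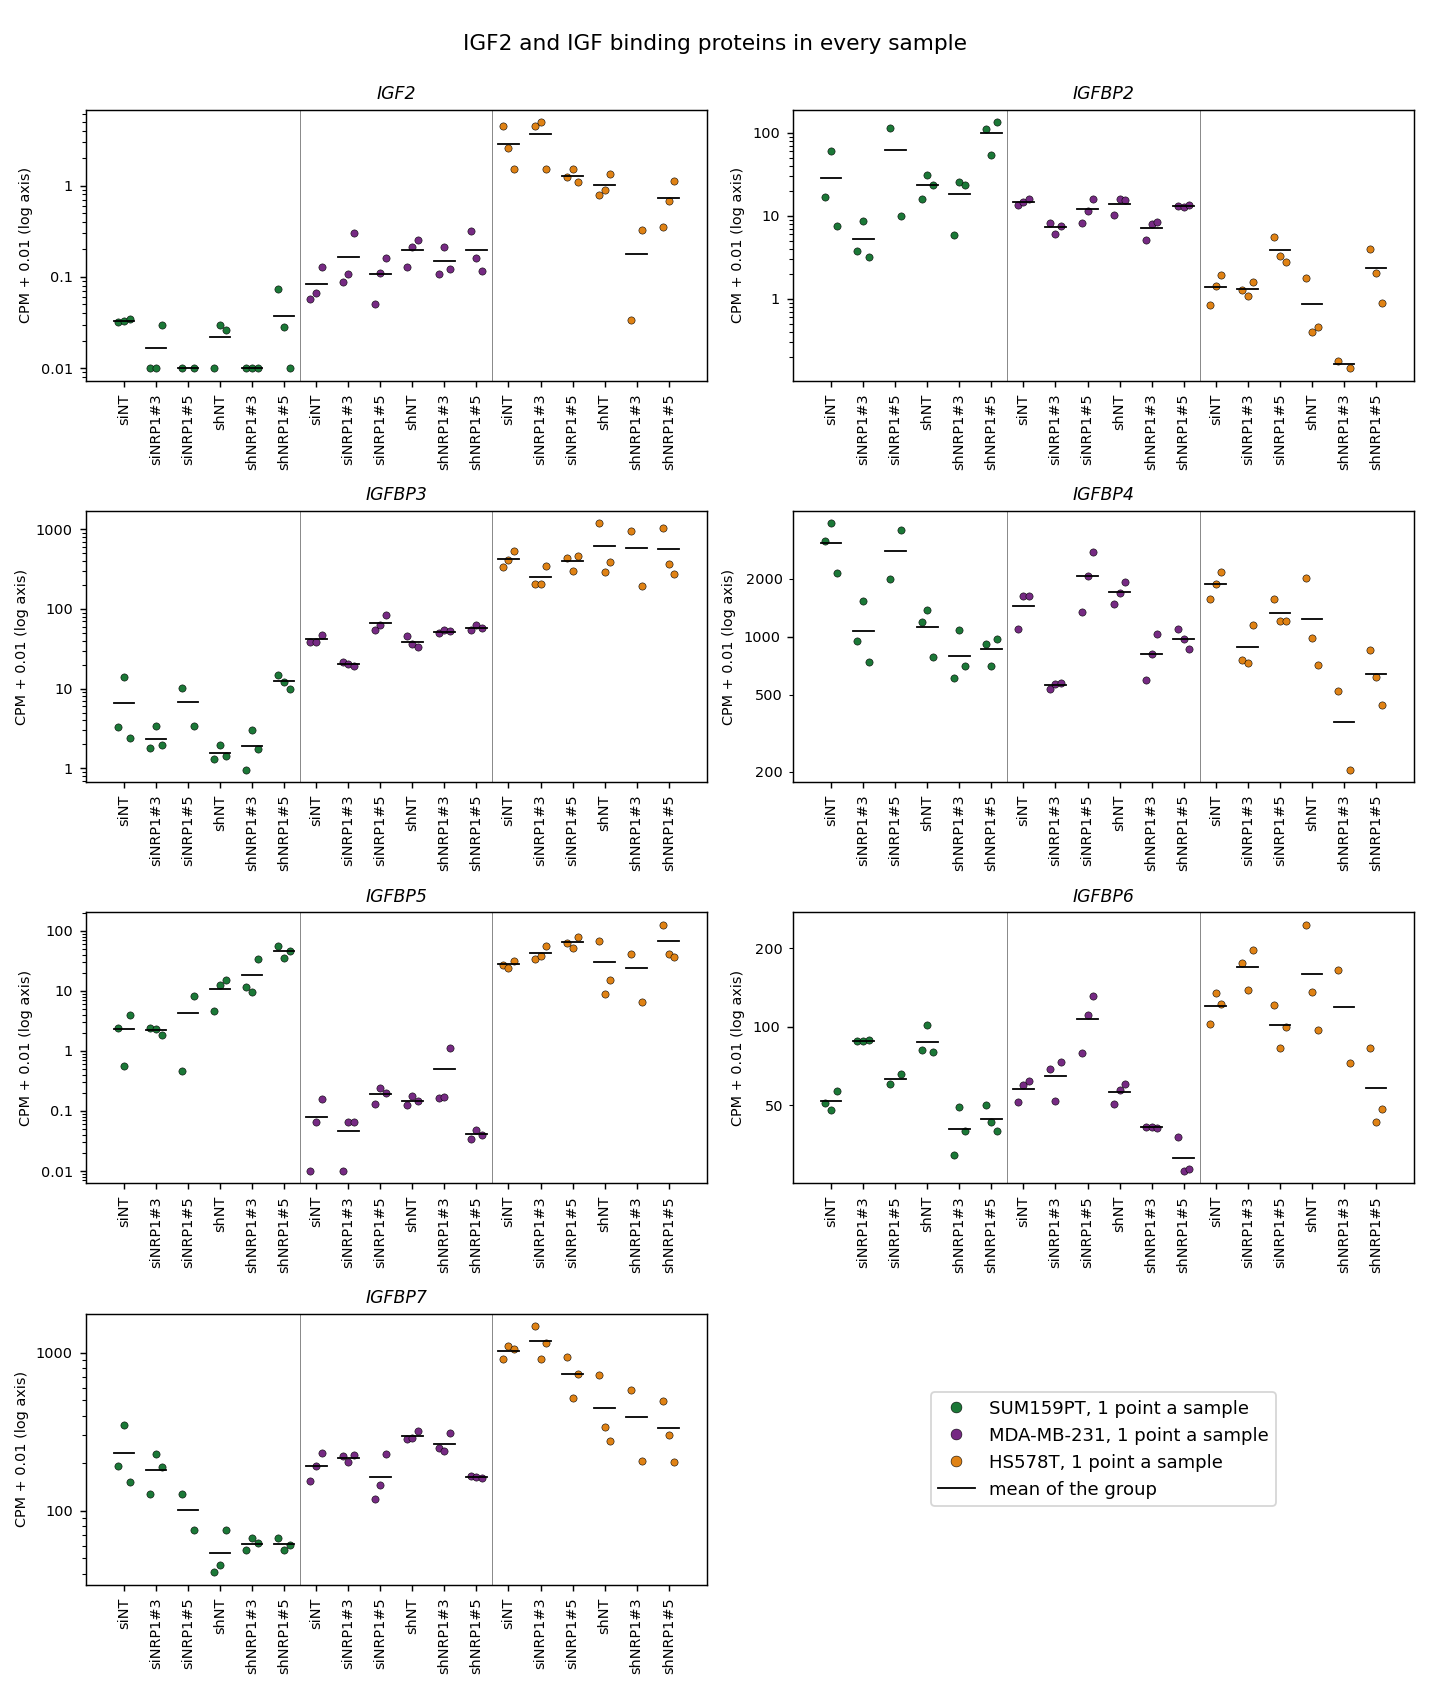
CPM + 0.01 on a log axis (y) of each member in every sample of the 18 groups (x), 1 panel a gene, with colours for the cell lines and bars for the group means. The spread is narrow in MDA-MB-231 for IGFBP2, IGFBP3, IGFBP4, IGFBP6 and IGFBP7 and wide in the shRNA groups of HS578T, where replicate 1 is the highest for all 6 binding proteins.

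After NRP1 knockdown, 5 binding proteins passed the test in SUM159PT or MDA-MB-231, and no member passed in HS578T in the model of its 6 groups. The changes were compared with the NT control of the same line and delivery. Of 76 member tests in the 12 comparisons with the NT controls, 17 passed, against 11.3% of all tests of all genes. Of the 17, 5 were higher and 12 lower, beside 5.31% and 6.01% of all tests of all genes. SUM159PT gave 6 of 24 (8.47% over all genes), MDA-MB-231 gave 11 of 24 (19.8%) and HS578T gave 0 of 28 (6.07%). In HS578T, 8 of the 28 had an unadjusted p under 0.05 in edgeR, and DESeq2 and limma on TPM called 2 each. With only the groups compared in the fit, edgeR called 3 in HS578T, namely IGFBP4 after siNRP1#3 (-1.08, 0.0322) and IGFBP2 and IGFBP5 after siNRP1#5 (1.46 and 1.21, 0.0244 and 0.0038). The samples of the groups compared did not overlap in 33 of the 76 tests, including the 17 that passed, against 32% of tests over all genes. IGFBP5 was too low to be tested in MDA-MB-231 and IGF2 in SUM159PT. Within a delivery both sequences are compared with the same NT samples, so their changes share the spread of these controls.

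By comparison, the members called were 2 of 6 for SUM159PT siNRP1#3 (8.66% of all genes), 1 of 6 for siNRP1#5 (17.9%), 1 of 6 for shNRP1#3 (1.4%) and 2 of 6 for shNRP1#5 (5.94%). In MDA-MB-231 they were 3 of 6 for siNRP1#3 (25.7%), 2 of 6 for siNRP1#5 (29.4%), 2 of 6 for shNRP1#3 (3.65%) and 4 of 6 for shNRP1#5 (20.7%). In HS578T, where none was called, 4.65%, 18.7%, 0.0356% and 0.946% of all genes were called after siNRP1#3, siNRP1#5, shNRP1#3 and shNRP1#5. The median log2 fold change of the members ran from -0.91 (SUM159PT siNRP1#3) to 1.18 (SUM159PT shNRP1#5), beside medians over all genes tested between -0.006 and 0.033.

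In the model of the 6 groups of a line, IGFBP4 fell in 4 comparisons and rose in none. In MDA-MB-231 the siNT samples held 1094, 1624 and 1623 CPM and the siNRP1#3 samples 537, 566 and 575 CPM, and the groups did not overlap. The log2 fold change was -1.35 ± 0.22 (SE, adjusted p = 0.000196). After shNRP1#3 in the same line the values were 596, 811 and 1037 CPM against 1475, 1682 and 1927 CPM in shNT, a change of -1.06 ± 0.21 (0.00786). shNRP1#5 gave 1092, 969 and 867 CPM, again below every shNT sample, at -0.79 ± 0.21 (0.0141). siNRP1#5, with 1349, 2058 and 2745 CPM, overlapped siNT, and its change of 0.53 ± 0.21 did not pass (0.0713); with the replicate number as a block, which pairs these samples, it passed (0.51, adjusted p = 0.0335). In SUM159PT, siNRP1#3 samples held 945, 1539 and 738 CPM, below the 3148, 3864 and 2140 CPM of siNT, at -1.5 ± 0.33 (0.0107). In HS578T the 4 fold changes of IGFBP4 lay between -1.77 ± 0.44 (shNRP1#3, adjusted p = 0.181) and -0.49 ± 0.37 (siNRP1#5, 0.375), and none passed. DESeq2 called the shNRP1#3 change (-1.78, adjusted p = 0.00915). RNA of other lines, by markers set by group means, would carry 27.0%, 43.8% and 20.0% of IGFBP4 in the HS578T siNRP1#5 libraries. Of all 12 fold changes of IGFBP4, 11 were below 0. Some of these calls were lost without 1 library. Without siNRP1#3 replicate 1 or 3 the SUM159PT change was -1.41 (adjusted p = 0.0617) or -1.29 (0.0581), and without shNRP1#3 replicate 1 the MDA-MB-231 change was -0.90 (0.0532). Without shNRP1#5 replicate 3 or shNT replicate 3 the MDA-MB-231 shNRP1#5 change was -0.71 (0.0676) or -0.69 (0.0687).

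IGFBP3 moved in opposite directions after the siRNAs in MDA-MB-231 and rose after shNRP1#5 in MDA-MB-231 and SUM159PT. In MDA-MB-231, siNT held 38.8, 38.8 and 46.9 CPM, siNRP1#3 held 21.5, 20.5 and 19.5 CPM, and siNRP1#5 held 54.3, 62.1 and 83.8 CPM. All siNRP1#3 samples were below siNT and all siNRP1#5 samples above it, at -0.99 ± 0.15 (adjusted p = 8.35e-05) and 0.70 ± 0.15 (0.00122). The latter call was lost with only the groups compared in the fit. shNRP1#5, with 54.0, 62.8 and 57.5 CPM, was above all shNT samples (45.3, 36.7 and 33.3 CPM), at 0.60 ± 0.15 (0.00683), and without shNT replicate 3 this was 0.51 (0.0501). shNRP1#3 held 49.5, 53.7 and 53.2 CPM, also above shNT, but 0.44 ± 0.15 did not pass (0.106). RNA of other lines, by markers set by group means, would carry 12.8 of the 53.2 CPM in replicate 3. With such RNA subtracted the change was 0.34 ± 0.15 (0.252), or 0.35 ± 0.15 (0.235) by the first marker rule. The largest fold change of any member that passed was that of IGFBP3 in SUM159PT after shNRP1#5. There the values were 15.1, 12.3 and 9.98 CPM against 1.29, 1.99 and 1.43 CPM in shNT, a log2 fold change of 3.02 ± 0.63 (0.00936; 2.90 and 0.0562 without shNT replicate 1). With siNRP1#5 in SUM159PT the 2 samples, 10.2 and 3.36 CPM, lay within the siNT range of 2.38 to 14 CPM. In HS578T, shNT held 1185, 291 and 386 CPM and shNRP1#5 held 1035, 361 and 274 CPM, and no change of IGFBP3 passed. Whether the change after shNRP1#5 was equal in the 3 lines was tested directly for each member, and IGFBP3 was the 1 member in 28 tests over the 4 sequences to pass (adjusted p = 0.0268). Over all genes 6.55% of such tests passed, and by sequence 3.42% for siNRP1#3, 18.2% for siNRP1#5, 0.747% for shNRP1#3 and 3.81% for shNRP1#5. IGFBP3 did not pass without replicate 1 (0.181) or without replicate 3 (0.237) of every group. With the replicate block 2 of the 28 passed, the other being IGFBP6 after siNRP1#5 (0.0487).

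IGFBP6 changed in 5 comparisons, rising in 2 with siRNAs and falling in 3 with shRNAs. In SUM159PT, siNT held 50.9, 48.1 and 57.0 CPM and siNRP1#3 held 88.2, 88.1 and 89.2 CPM, so that all siNRP1#3 samples were higher, at 0.77 ± 0.18 (adjusted p = 0.0156). In MDA-MB-231, siNRP1#5 held 79.2, 111 and 132 CPM, above the siNT values of 51.4, 59.8 and 62.2 CPM, at 0.91 ± 0.17 (0.000414). The shRNAs gave lower values. In SUM159PT, shNRP1#3 held 32.4, 49.4 and 39.9 CPM and shNRP1#5 held 50.3, 43.2 and 39.8 CPM, all below shNT with 81.8, 101 and 79.9 CPM. The fold changes were -1.10 ± 0.18 (0.00533) and -0.95 ± 0.18 (0.00532). In MDA-MB-231, shNRP1#5 held 37.8, 28.0 and 28.5 CPM against 50.7, 57.3 and 60.4 CPM in shNT, at -0.83 ± 0.17 (0.00207), and shNRP1#3, with 41.4, 41.4 and 41.0 CPM, was also below every shNT sample but did not pass (-0.44 ± 0.17, 0.173). In HS578T, shNRP1#5 held 83.1, 43.1 and 48.6 CPM against 246, 135 and 97.2 CPM in shNT, at -1.45 ± 0.35. It missed the threshold (0.0555) and passed with the replicate block, which pairs the passages in this comparison (-1.45, adjusted p = 0.0195). The same change also passed by DESeq2 (adjusted p = 0.00286) and limma on TPM (0.0407). In edgeR it passed with RLE size factors (0.0488) and without the filter on low counts (1.69e-05). It was not called with only the groups compared in the fit or with RNA of other lines subtracted. The SUM159PT siNRP1#3 call was lost without siNRP1#3 replicate 1 (0.78, 0.0535) or replicate 3 (0.77, 0.0503).

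IGFBP2 fell after both #3 sequences in MDA-MB-231. The siNRP1#3 samples held 8.29, 6.02 and 7.45 CPM against 13.5, 14.7 and 15.8 CPM in siNT, at -0.99 ± 0.22 (adjusted p = 0.00269). The shNRP1#3 samples held 5.09, 7.93 and 8.44 CPM against 10.3, 15.9 and 15.5 CPM in shNT, at -0.95 ± 0.22 (0.018), and neither pair of groups overlapped. The shNRP1#3 call was lost without shNRP1#3 replicate 1 (-0.78, 0.109), shNT replicate 2 (-0.85, 0.0986) or shNT replicate 3 (-0.87, 0.0883). In SUM159PT, IGFBP2 varied widely within groups. siNT held 17, 60.4 and 7.58 CPM, siNRP1#3 held 3.74, 8.72 and 3.16 CPM, and the 2 siNRP1#5 samples held 115 and 9.95 CPM. The fold changes of IGFBP2 in SUM159PT ran from -2.44 ± 0.86 (siNRP1#3, 0.0892) to 2.13 ± 0.84 (shNRP1#5, 0.172) and none passed. In HS578T, shNRP1#3 held 0.168 and 0.135 CPM and shNRP1#5 held 4.0, 2.07 and 0.876 CPM against 1.76, 0.382 and 0.444 CPM in shNT, at -2.52 ± 0.77 (0.371) and 1.40 ± 0.57 (0.213). The siNRP1#5 libraries of HS578T held 5.53, 3.29 and 2.79 CPM, all above the 0.833 to 1.92 CPM of siNT, at 1.47 ± 0.57 (0.081). By markers set by group means, the RNA of other lines in these 3 libraries would carry 4.23, 5.13 and 2.41 CPM of IGFBP2. This is 76.4%, 156% and 86.5% of the value measured, so the estimate is too high in replicate 2. With this RNA subtracted the change was -0.60 ± 0.96 (0.709), or 0.12 ± 0.92 (0.945) by the first marker rule.

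IGFBP7, a secreted protein often called a tumour suppressor, fell in 2 comparisons. In MDA-MB-231, shNRP1#5 held 167, 164 and 162 CPM against 284, 288 and 320 CPM in shNT, at -0.85 ± 0.18 (adjusted p = 0.00274), and this was kept in every alternative run. In SUM159PT the 2 siNRP1#5 samples held 128 and 75.5 CPM, below the siNT values of 192, 350 and 152 CPM, at -1.17 ± 0.36 (0.0335). That call was lost without siNRP1#5 replicate 3 (-0.83, 0.214), without siNT replicate 2 (-0.74, 0.126) and with only the groups compared in the fit. In HS578T the 4 fold changes of IGFBP7 lay between -0.49 ± 0.40 and 0.21 ± 0.40 and none passed.

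IGFBP5 and IGF2 passed in no knockdown comparison of the 8 in which each was tested. For each, 1 of 8 had an unadjusted p under 0.05 in edgeR. DESeq2 called neither, limma on TPM called IGFBP5 once, and edgeR with only the groups compared called IGFBP5 in 2 comparisons and IGF2 in 0. The widest change of IGFBP5 was in SUM159PT after shNRP1#5, where 55.6, 35.8 and 46.4 CPM stood above 4.57, 12.4 and 15.1 CPM in shNT (2.14 ± 0.77, adjusted p = 0.127, or 0.0219 with only the groups compared). In HS578T the siNRP1#5 samples held 63.2, 51.9 and 79.7 CPM of IGFBP5, above the 27.1, 24.4 and 31.4 CPM of siNT (1.23 ± 0.68, 0.226, or 0.0038 with only the groups compared). In MDA-MB-231, where it was not tested, IGFBP5 was at or below 0.228 CPM in 17 of 18 libraries. It stood at 1.13 CPM in shNRP1#3 replicate 3. There HS578T and SUM159PT RNA would carry 0.897 CPM by markers set by group means. IGF2 in HS578T held 0.781, 0.884 and 1.34 CPM in shNT and 0.0240 and 0.312 CPM in the 2 shNRP1#3 samples (-2.54 ± 0.79, 0.385).

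**Figure D3:**
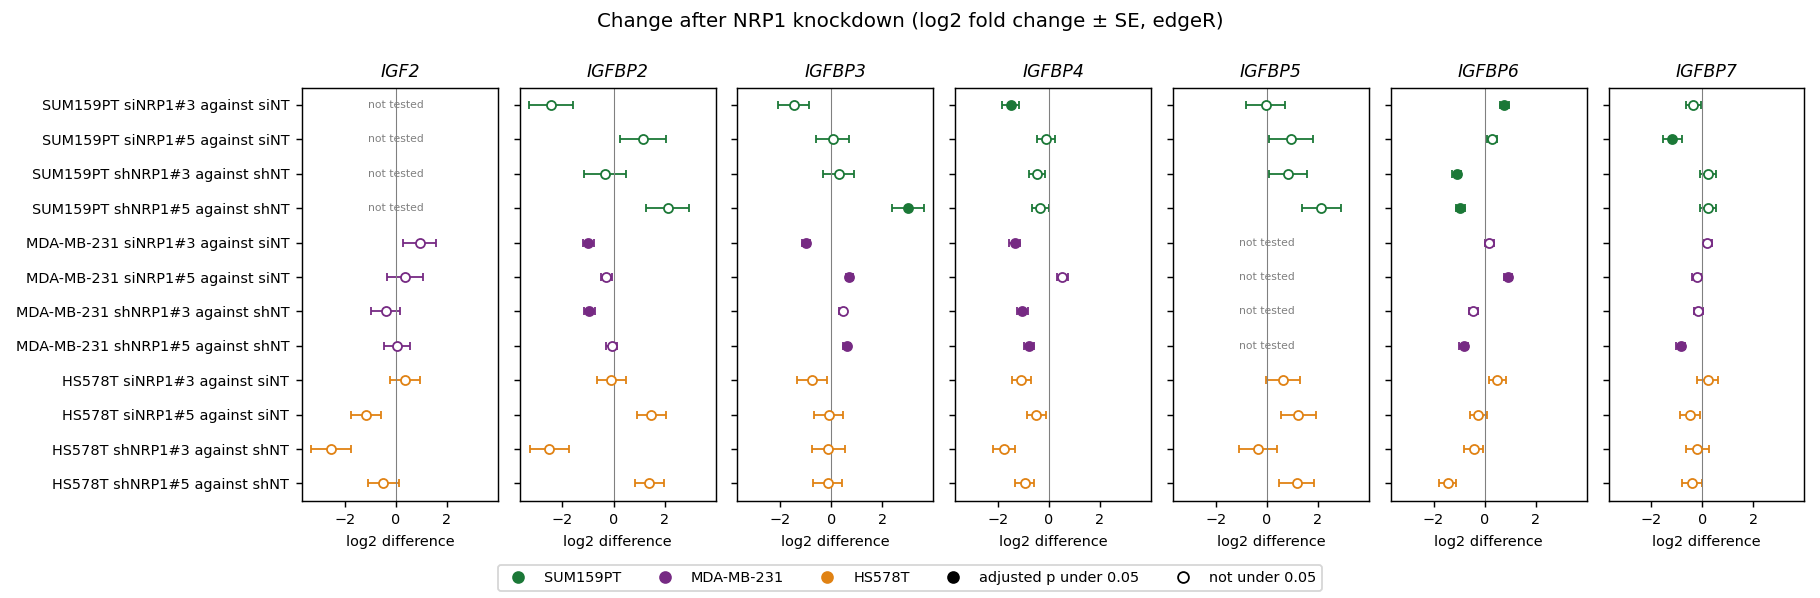
Log2 fold change (x axis) of each member in the 12 knockdown comparisons (rows), with bars for the SE, filled points for adjusted p under 0.05 and colours for the cell lines. The 17 filled points lie in SUM159PT and MDA-MB-231, IGFBP4 has 11 of 12 points below 0, and IGFBP6 has filled points above 0 only for siRNAs and below 0 only for shRNAs.

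The NT controls of the deliveries were themselves compared, since shNT and siNT differ in virus, puromycin and time of harvest at once. Of 19 tests, 5 passed, against 17.6% of all tests of all genes. The groups did not overlap in 9 of the 19, against 38.1% of tests over all genes. In SUM159PT (4 of 6 members, 14.4% of all genes), shNT was lower than siNT for IGFBP7 with 40.8, 45.6 and 75.2 CPM against 192, 350 and 152 CPM (-2.13 ± 0.32, adjusted p = 0.00237). It was also lower for IGFBP4 (-1.47 ± 0.33, 0.0118) and IGFBP3 (-2.10 ± 0.61, 0.0328) and higher for IGFBP6 (0.73 ± 0.18, 0.0178). In MDA-MB-231 (1 of 6, 20.6%), shNT was higher for IGFBP7 (0.59 ± 0.18, 0.0228). In HS578T (0 of 7, 17.9%), 2 members had an unadjusted p under 0.05 in edgeR, DESeq2 and limma on TPM called 1 each, and edgeR with only the groups compared called 2. There IGFBP7 stood at 724, 338 and 276 CPM in shNT against 913, 1106 and 1054 CPM in siNT (-1.19 ± 0.41, 0.0512). The IGFBP3 call was lost without any 1 of the shNT replicates (adjusted p = 0.107, 0.054 and 0.125 without replicates 1, 2 and 3) and without siNT replicate 2 (-0.88, 0.251). The IGFBP6 call was lost without shNT replicate 2 (0.0587) or 3 (0.0534) or siNT replicate 1 (0.061) or 2 (0.0509), and the IGFBP4 call without shNT replicate 3 (-1.27, 0.071). The MDA-MB-231 IGFBP7 call was lost without shNT replicate 3 (0.54, 0.0821) or siNT replicate 1 (0.47, 0.109) or 2 (0.58, 0.0703).

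The #5 and #3 sequences were compared directly within each delivery, which leaves out the shared NT control. IGFBP2, IGFBP3 and IGFBP4 were higher after #5 wherever they passed. Of 38 tests, 10 passed, 9 of them higher after #5, against 18.3% of all tests of all genes. The groups did not overlap in 19 of the 38, against 37.3% of tests over all genes. In MDA-MB-231, siNRP1#5 exceeded siNRP1#3 for IGFBP4 (1.87 ± 0.22, adjusted p = 2.55e-06), IGFBP3 (1.70 ± 0.15, 6.9e-08), IGFBP6 (0.72 ± 0.17, 0.002) and IGFBP2 (0.71 ± 0.22, 0.0149), which is 4 of 6 members beside 39% of all genes. With the shRNAs in that line IGFBP2 was higher (0.89 ± 0.22, 0.0119) and IGFBP7 lower (-0.69 ± 0.18, 0.0151) after #5, 2 of 6 members beside 14.2%. In SUM159PT the siRNAs differed for IGFBP2 (3.59 ± 0.94, 0.0105) and IGFBP4 (1.38 ± 0.36, 0.00964), 2 of 6 beside 29.7%, and the shRNAs for IGFBP3 (2.73 ± 0.62, 0.0113), 1 of 6 beside 8.71%. In HS578T the shRNAs differed for IGFBP2 (3.92 ± 0.79, 0.0321), 1 of 7 beside 0.544%. The siRNAs of HS578T differed for 0 of 7 beside 18.1%, with 3 at an unadjusted p under 0.05 in edgeR, 2 called by DESeq2, 1 by limma on TPM and 3 by edgeR with only the groups compared.

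IGFBP2 was higher after #5 in 6 of 6 direct comparisons and passed in 4, with log2 differences from 0.71 to 3.92. IGFBP4 was higher in 6 of 6 and passed in 2. Both counts include the siRNA comparison of HS578T, which did not pass. By markers set by group means, RNA of other lines would carry 76.4%, 156% and 86.5% of IGFBP2 in the siNRP1#5 libraries there. In siNRP1#3 it would carry 44.1%, 64.7% and 87.9%. For IGFBP4 these shares were 27.0%, 43.8% and 20.0% in siNRP1#5 and 7.55%, 9.71% and 12.3% in siNRP1#3. The IGFBP2 values are sparse in HS578T, and its call there was lost without either shNRP1#3 replicate (adjusted p = 0.343 and 0.142), without shNRP1#5 replicate 1 (0.0547) or 2 (0.0796), when RNA of other lines was subtracted, and when the HS578T siNRP1#5 group was left out of the fit (3.92, 0.058). In SUM159PT the IGFBP2 difference rested on 1 library, since without siNRP1#5 replicate 2 it was 0.90 (0.506). The IGFBP4 difference there was 0.91 (0.128) without siNRP1#5 replicate 3, and the IGFBP3 difference was 2.38 (0.0619) without shNRP1#3 replicate 1. In MDA-MB-231 the IGFBP2 call was lost without siNRP1#3 replicate 2 (0.59, 0.0755) or siNRP1#5 replicate 3 (0.46, 0.0907), and with the shRNAs without shNRP1#3 replicate 1 (0.72, 0.0694). The IGFBP7 call was lost without shNRP1#3 replicate 3 (-0.58, 0.0703) or shNRP1#5 replicate 2 (-0.69, 0.0573) or 3 (-0.69, 0.0578).

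Because siNRP1#5 and shNRP1#5 share a sequence, the change after each was compared within a line, as the shNRP1#5 change less the siNRP1#5 change. Of 19 tests 3 passed, all with the shRNA change lower, against 8.75% of all tests of all genes. IGFBP6 in MDA-MB-231 went from 0.91 with the siRNA to -0.83 with the shRNA, a difference of -1.74 ± 0.24 (adjusted p = 3.85e-05), and IGFBP4 went from 0.53 to -0.79 (-1.31 ± 0.30, 0.00403), 2 of 6 members beside 23.7% of all genes. IGFBP6 in SUM159PT went from 0.29 to -0.95 (-1.24 ± 0.27, 0.0302), 1 of 6 beside 2.51%. This last call was lost without shNRP1#5 replicate 1 (0.053) or 2 (0.0673), any 1 shNT replicate (0.0685, 0.0577 and 0.0566) or siNT replicate 1 (0.0629). In HS578T 0 of 7 passed beside 0.854% of all genes, 1 had an unadjusted p under 0.05 in edgeR, and DESeq2 and limma on TPM called 0; IGFBP6 was at -1.20 ± 0.48 (0.283) there. With the replicate block 5 of the 19 passed, adding IGFBP3 in SUM159PT (3.10, adjusted p = 0.0179) and IGFBP7 in MDA-MB-231 (-0.61, 0.0379). The block joins siRNA and shRNA samples of the same replicate number. Deviations of such shNT and siNT samples from their group means correlated at 0.05, 0.17 and 0.14 in SUM159PT and 0.12, 0.06 and 0.11 in MDA-MB-231. IGFBP3 in SUM159PT, where the shRNA change was the higher, was also called by DESeq2 (2.96, 0.0147) and limma on TPM (2.19, 0.0348). There limma on TPM called IGFBP7 as well, again with the shRNA change higher (1.80, 0.0238). Knockdown of NRP1 itself was deeper with the siRNA than with the shRNA in MDA-MB-231 (difference 3.83 ± 0.22, 8.14e-09) and SUM159PT (2.01 ± 0.45, 0.0315), and the part of this in the differences of the binding proteins was not tested.

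**Figure D4:**
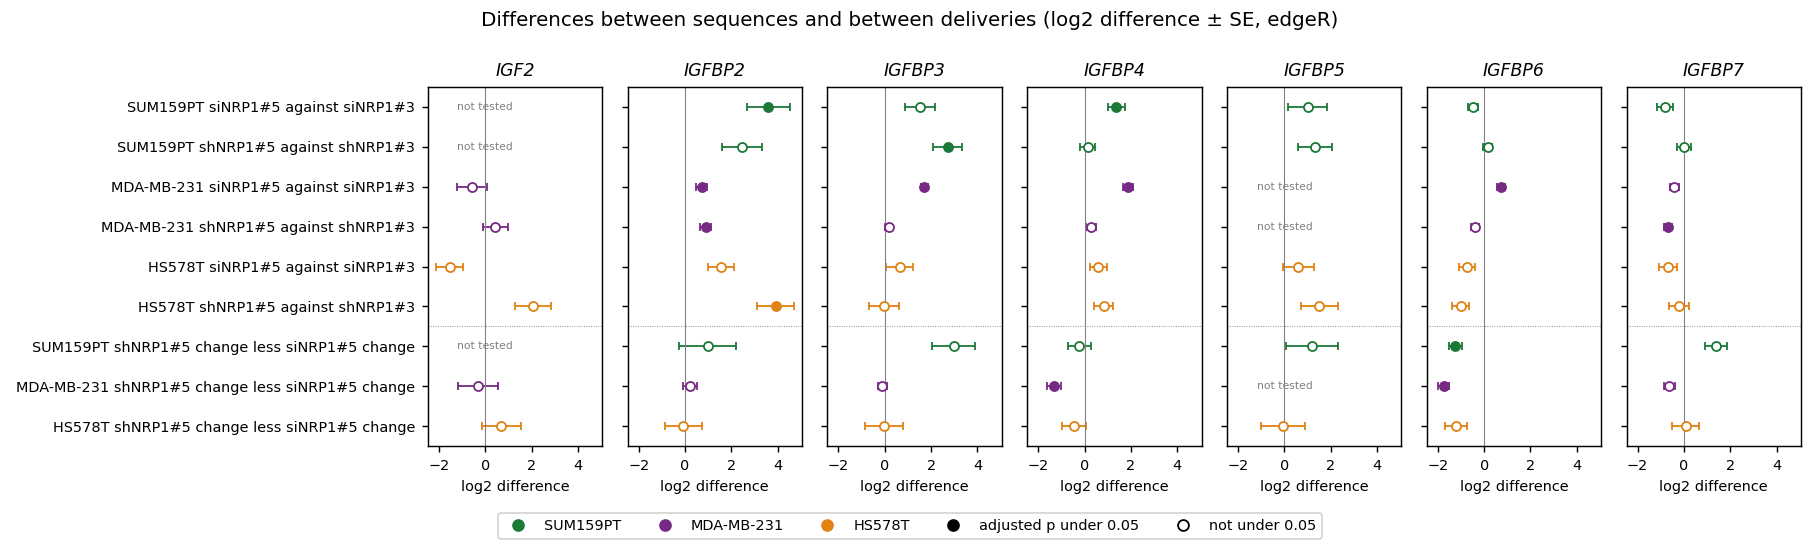
Log2 difference (x axis) of each member between #5 and #3 within a delivery (upper 6 rows) and between the shNRP1#5 and siNRP1#5 changes (lower 3 rows), with bars for the SE, filled points for adjusted p under 0.05 and colours for the cell lines. The 6 upper points of IGFBP2 and of IGFBP4 lie above 0, among them the siRNA row of HS578T, where genes of other lines were read. The 3 lower points of IGFBP6 lie between -1.74 and -1.20.

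A list of 27 other genes of the IGF system gave 264 tests in the 12 knockdown comparisons, of which 23 passed higher and 30 lower, or 20.1% against 11.3% of all tests of all genes. The genes named are those that passed in the same direction in at least 3 comparisons. Among the proteases that cut binding proteins, HTRA1 fell in 5 comparisons. In MDA-MB-231 it averaged 41.9 ± 16.8 CPM in siNT against 13.4 ± 1.94 CPM in siNRP1#3 and 16.3 ± 4.09 CPM in siNRP1#5 (SD, n = 3), at -1.62 ± 0.24 and -1.34 ± 0.24 (adjusted p = 8.79e-05 and 0.000314), and shNRP1#5 gave -1.93 ± 0.24 (3.94e-05). HTRA1 also fell in SUM159PT after shNRP1#5 (-0.93 ± 0.26, 0.0438) and in HS578T after siNRP1#3 (-1.18 ± 0.29, 0.0302). HTRA3 fell in 3 comparisons and rose in 1, with -1.92 ± 0.21 (3.53e-06) after siNRP1#3 and 0.88 ± 0.19 (0.00193) after siNRP1#5 in MDA-MB-231. ADAM9, a membrane metalloprotease, fell after siNRP1#3 in all 3 lines, by 1.35 to 1.67 on the log2 scale, and passed as higher after siNRP1#5 in HS578T (1.00 ± 0.31, 0.0349). With RNA of other lines subtracted, the siNRP1#3 change in HS578T still passed (-1.57 ± 0.35, 0.0238), whereas that after siNRP1#5 missed the threshold (1.04 ± 0.35, 0.0565), as did those of HTRA1 after siNRP1#3 (-1.15 ± 0.30, 0.0506) and HTRA3 after siNRP1#5 (-0.73 ± 0.31, 0.128).

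Of the receptors, IGF1R fell in 4 comparisons, with -0.86 ± 0.25 (adjusted p = 0.0384) and -1.06 ± 0.28 (0.0175) after siNRP1#3 and siNRP1#5 in SUM159PT and -0.76 ± 0.16 (0.00177) and -0.66 ± 0.16 (0.00662) after siNRP1#3 and shNRP1#5 in MDA-MB-231. In HS578T it passed as higher after siNRP1#5 (1.04 ± 0.28, 0.0161). By markers set by group means, however, RNA of other lines would carry 62.8%, 60.4% and 29.5% of the IGF1R measured in these libraries. With it subtracted the change was 0.54 ± 0.32 (0.281), or 0.58 ± 0.31 (0.229) by the first marker rule, and did not pass. IGF2R, which clears IGF2 from outside the cell, fell in 3, namely after both siRNAs in SUM159PT (-1.09 ± 0.24 and -1.07 ± 0.28, 0.0106 and 0.0144) and after siNRP1#3 in MDA-MB-231 (-0.58 ± 0.17, 0.0183). STC1, a glycoprotein that inhibits the protease PAPPA, rose in 3, all with the #5 sequence: siNRP1#5 in MDA-MB-231 (1.27 ± 0.34, 0.0102) and siNRP1#5 and shNRP1#5 in HS578T (1.69 ± 0.40 and 1.97 ± 0.40, 0.00801 and 0.0305). RNA of other lines, by markers set by group means, would carry 42.0%, 79.5% and 41.0% of STC1 in the HS578T siNRP1#5 libraries. With it subtracted that change was 1.25 ± 0.50 (0.105), or 1.20 ± 0.54 (0.152) by the first marker rule, and did not pass. IGFBPL1, which resembles IGFBP7, rose in 4 comparisons with siRNAs. In MDA-MB-231 it averaged 10.8 ± 1.96 CPM in siNT, 38.1 ± 2.66 CPM in siNRP1#3 and 21.7 ± 3.45 CPM in siNRP1#5 (1.85 ± 0.14 and 1.03 ± 0.14, 5.44e-08 and 2.02e-05), while shNT already held 41.1 ± 3.03 CPM. In HS578T it rose after siNRP1#3 (1.76 ± 0.38, 0.0143) and siNRP1#5 (2.40 ± 0.38, 0.000747), to 6.57 ± 1.56 CPM in the latter, and with RNA of other lines subtracted both still passed (1.81 ± 0.44 and 2.36 ± 0.44, 0.0335 and 0.00311).

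H19, the noncoding RNA gene next to IGF2, rose in 3 comparisons and fell in 1. In SUM159PT it averaged 37.4 ± 31.0 CPM after siNRP1#5 (n = 2) against 0.568 ± 0.489 CPM in siNT (n = 3), at 6.03 ± 0.93 (adjusted p = 0.00101), and 18.7 ± 16.8 CPM after shNRP1#5 against 1.3 ± 1.09 CPM in shNT (3.88 ± 0.81, 0.00968). It was 0.0150 ± 0.0144 CPM after siNRP1#3 (-5.05 ± 1.39, 0.0345). In MDA-MB-231 siNRP1#5 gave 7.29 ± 1.67 CPM against 0.282 ± 0.240 CPM in siNT (4.68 ± 1.39, 0.0222). In HS578T H19 was higher, and it was uneven with the shRNAs, at 17.1 to 1157 CPM among the 3 shNT samples. With the siRNAs the groups did not overlap, at 97.5 to 119 CPM in siNT, 31.9 to 55.2 CPM in siNRP1#3 and 354 to 439 CPM in siNRP1#5. H19 passed in no knockdown comparison in the model of the 6 HS578T groups, which share 1 estimate of the spread. IGF1, IGFALS, INS-IGF2 and IGF2-AS were too low to be tested in any line.

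The pattern of each member over the 18 group means, after taking out the mean of each cell line, was compared with that of 14627 genes as a description. The genes most like IGFBP4 were RAB20 (Pearson r = 0.95), NGFR (0.90) and PLOD1 (0.89), and those most like IGFBP7 were PSAP (0.96), OS9 (0.95) and GRN (0.93). IGFBP2 was most like CSGALNACT2 (0.93), DYNLL2 (0.90) and FAM171A1 (0.89), IGFBP3 most like DTX4 (0.89), SSC4D (0.88) and SERTAD4 (0.87), and IGFBP6 most like AK1 (0.88), DNAAF3 (0.88) and RTN2 (0.87). Among the members themselves r lay between -0.29 (IGFBP2 and IGFBP6) and 0.50 (IGFBP4 and IGFBP7). These are correlations over means of groups that share libraries and NT controls, and are given without a test.

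Transcript shares, as the deposited percentages of each gene, were close between lines for IGFBP3, IGFBP6 and IGFBP7. IGFBP4 had 1 annotated transcript. IGFBP3-202 made up 80.8% ± 11.2, 80.8% ± 3.06 and 78.8% ± 2.65 of IGFBP3 in the NT controls of SUM159PT, MDA-MB-231 and HS578T (SD, n = 6). IGFBP7-201 made up 78.3% ± 3.77, 82.3% ± 1.82 and 83.3% ± 2.25, and IGFBP6 was shared between IGFBP6-201 (57.0% to 61.0% on average) and IGFBP6-204 (34.3% to 37.4%). IGFBP5-201 made up 91.4% ± 13.3 of IGFBP5 in SUM159PT against 75.0% ± 7.95 in HS578T. IGFBP2 was spread over IGFBP2-204, IGFBP2-201 and IGFBP2-203, at 41.4%, 34.6% and 23.1% on average in SUM159PT and 44.4%, 37.7% and 17.1% in MDA-MB-231. In HS578T, where IGFBP2 was low, the order differed, at 35.5% ± 26.7, 52.1% ± 29.2 and 11.4% ± 14.7. No test was run on these shares.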

How the data were processed

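Poly(A) RNA of 52 cell line samples had been sequenced. Per the labels and the study's methods, the authors trimmed reads with Trim Galore 0.6.5, aligned them to GRCh38 with STAR 2.7.2b and quantified them with RSEM 1.3.3 on Ensembl 114. The deposited values used are expected counts per gene, TPM and the percent of a gene that each transcript makes up. Expected counts were rounded, and genes were filtered with filterByExpr, scaled by TMM and tested by edgeR 4.0.16 quasi-likelihood (R 4.3.3) in 1 model a cell line with its 6 groups, or in 1 model of 18 groups for comparisons of lines. P-values were adjusted by Benjamini-Hochberg over all genes tested (20067 in SUM159PT, 18800 in MDA-MB-231, 19661 in HS578T and 23416 over all) with a threshold of 0.05. CPM are expected counts over TMM library sizes. The models were checked on simulated counts.

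The members and lists were chosen with earlier results of these data known. Text names the 7 members, NRP1, genes of the 27-gene list past the threshold in 1 direction in at least 3 knockdown comparisons (at most 8), and the 3 genes most like each member tested in all lines, among genes of at least 1 CPM. Alternatives were size factors by RLE, DESeq2 1.42.0, no filter, a replicate block, subtraction of other-line RNA, only the groups compared, limma 3.58.1 on log2(TPM + 1) and leaving out each replicate. A second marker rule, leaving out HS578T siNRP1#5 and the subtraction for listed genes were chosen after seeing the data. Replicate numbers paired the samples (every correlation of deviations above 0.1) in 4 of the 10 knockdown comparisons with 3 pairs, namely HS578T shNRP1#5, MDA-MB-231 siNRP1#5, SUM159PT shNRP1#3 and SUM159PT siNRP1#3. Between shNT and siNT this rule was met in no line. The replicate block used the same replicate terms for all groups of a model. Replicates missing from 2 groups were not analysed here.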

Additional observations from a re-analysis of the deposited data

Results flagged for a closer look

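The change after shNRP1#5 differed from that after siNRP1#5, which has the same sequence, in 3 of 19 tests of a member in a line, against 8.75% of such tests over all genes (23.7% in MDA-MB-231 and 2.51% in SUM159PT). The differences on the log2 scale were -1.74 ± 0.24 for IGFBP6 in MDA-MB-231, -1.24 ± 0.27 for IGFBP6 in SUM159PT and -1.31 ± 0.30 for IGFBP4 in MDA-MB-231 (adjusted p = 3.85e-05, 0.0302 and 0.00403, edgeR quasi-likelihood). The SUM159PT difference did not pass without any 1 of 6 libraries (adjusted p from 0.053 to 0.0685), by limma on TPM or with only the groups compared in the fit. Delivery, puromycin selection and time of harvest differ between these experiments and cannot be told apart.

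The change of IGFBP3 after shNRP1#5 was unequal in the 3 cell lines (edgeR, adjusted p = 0.0268), with log2 fold changes of 3.02 in SUM159PT, -0.14 in HS578T and 0.60 in MDA-MB-231. It was the 1 call in 28 such tests of members, against 6.55% of such tests over all genes. The call was lost without replicate 1 (0.181) or replicate 3 (0.237) of every group. In HS578T, replicate 1 of the shRNA groups was the highest in 18 of 18 combinations of a binding protein and a group, and the part of this in the result was not tested.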

How the results depend on the processing

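Of 201 results tested, 52 passed, and 30 of these kept their direction and passed under every alternative run. The 16 differences between cell lines were all among the 30, and most other calls were lost in some run. The differences between lines met fewer alternatives, however, at 7 settings and 3 leave-outs a result. They had no limma on TPM and no fit of only the groups compared. Their leave-outs dropped a replicate number from every group, and no run dropped a single library. After knockdown, the calls kept in MDA-MB-231 were IGFBP2, IGFBP3 and IGFBP4 after siNRP1#3, IGFBP6 after siNRP1#5 and IGFBP6 and IGFBP7 after shNRP1#5. In SUM159PT they were IGFBP6 after shNRP1#3 and shNRP1#5. No result that passed changed direction. Without the filter on low counts more members passed: 13 higher and 22 lower after knockdown (5 and 12 with it), 8 between shNT and siNT (5), 23 between #5 and #3 (10), 7 between the deliveries (3) and 10 in the test of unequal change in the 3 lines (1). With only the groups compared in a fit, 9 rose after knockdown. With the replicate block 5 differed between the deliveries and 2 changed unequally in the 3 lines, as did 2 by DESeq2. The block also added IGFBP5 in SUM159PT (2.43, adjusted p = 0.0234) and IGFBP7 in HS578T (-1.35, 0.00495) between shNT and siNT, and between #5 and #3 it added IGFBP2 with shRNAs in SUM159PT (2.80, 0.0253) and IGFBP7 with siRNAs in MDA-MB-231 (-0.44, 0.0214) and SUM159PT (-0.93, 0.0433). Of these comparisons, replicate numbers paired only the siRNA samples of SUM159PT (correlations 0.31 and 0.30 for replicates 2 and 3). Leaving out replicates gave 4 to 6 higher and 10 to 13 lower after knockdown, 2 to 7 between shNT and siNT, 9 to 12 between #5 and #3, 2 to 4 between the deliveries, 16 to 17 between lines and 0 to 1 in the test of unequal change. The cause was not tested. RLE scaling moved the median fold change by at most 0.076. Depth limits IGF2 and, in MDA-MB-231, IGFBP5, which had few counts.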
